A study of Mus musculus with 2 samples.

Results

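The 9 genes described here encode proteins that carry retinoids, make and destroy retinoic acid, and respond to it: Rbp4, Stra6, Crabp1, Crabp2, Aldh1a1, Aldh1a2, Aldh1a3, Cyp26b1 and Rarb. They were taken by symbol from 2 deposited gene tables with 49492 gene symbols, and all 9 were found. They were picked with their levels in these 2 libraries known, so their levels and ratios are a description, and no test was made on them. The heart library came from Nestin+ mesenchymal stromal cells of the heart, grown in DMEM/F12 and IMDM with bFGF and EGF, both at 20 ng/ml, cardiotrophin-1 at 4 ng/ml, N2 supplement at 1% and B27 supplement at 2%. The bone marrow library came from Nestin+ mesenchymal stromal cells of the bone marrow, grown in a medium that the labels give only by reference to an earlier report. Both cultures were at passage 10 and came from C57BL/6 mice 7 days old that carry a Nestin-GFP transgene, in which regulatory sequence of the intermediate filament gene Nes drives a green fluorescent protein. The number of mice behind each culture is not given in the sources used here.

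Each tissue gave 1 library, so no difference has a replicate check, and tissue, medium and library cannot be told apart. B27 is a serum-free supplement whose standard form contains retinyl acetate, a form of vitamin A. The labels do not say which form was used in the heart medium, and give no retinoid content for either medium. Levels are in RPKM, reads scaled to library total and gene model length, so genes can be compared with each other. The whole reads behind the values were recovered, with library totals of 64872683 for heart and 53999963 for bone marrow. Intervals are 95% counting intervals within these libraries and hold no variation between cultures. In bulk RNA, fewer cells that make a transcript and less of it per cell cannot be told apart.

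Retinol, the alcohol form of vitamin A, circulates bound to the protein encoded by Rbp4 and enters some cells through the receptor encoded by Stra6. Inside the cell it is oxidised first to retinaldehyde, by alcohol and retinol dehydrogenases, and then to retinoic acid by the retinaldehyde dehydrogenases of the Aldh1a genes. Retinoic acid is carried by the Crabp proteins, acts through nuclear receptors of the RAR and RXR families, and is broken down by enzymes of the Cyp26 genes. In the developing heart the epicardium is known for Aldh1a2, and retinoic acid is known to act on bone-forming cells.

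The 2 libraries differed in which of the 9 members reached 1 RPKM. Rarb, Aldh1a1 and Crabp1 were at or above 1 RPKM in heart alone, and Crabp2 and Aldh1a3 in bone marrow alone. No member reached 1 RPKM in both, but Crabp2 in heart, at 0.863 RPKM, and Aldh1a1 in bone marrow, at 0.722 RPKM, were not far below it. The other 4 members, Rbp4, Stra6, Aldh1a2 and Cyp26b1, were below 1 RPKM in both libraries, Cyp26b1 narrowly so, with 0.0806 RPKM in heart and 0.993 RPKM in bone marrow. All 9 were modest in level, with a highest value of 7.47 RPKM.

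**Figure D1:**
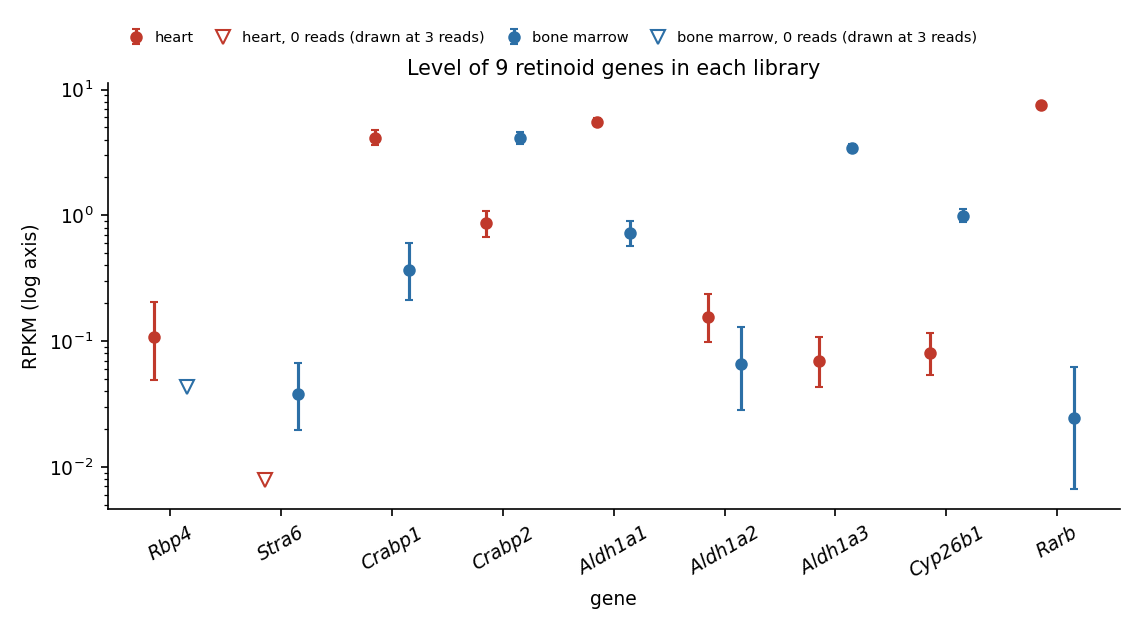
RPKM of each of the 9 genes on a log axis, with heart in red left of bone marrow in blue; points are single libraries, bars are 95% Poisson counting intervals, and open triangles mark libraries with 0 reads, drawn at 3 reads. Rarb, Aldh1a1 and Crabp1 stand high in heart, and Crabp2 and Aldh1a3 in bone marrow. Cyp26b1 is higher in bone marrow than in heart but below 1 RPKM in both.

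A log2 ratio here is that of heart over bone marrow after 1 RPKM was added to both levels, which understates differences of low genes. Genes were called higher in the library where they stood at 5 RPKM or more, if this ratio reached 2-fold. By that rule 2 members, Rarb and Aldh1a1, were higher in heart, as were 7.56% of the 7659 gene symbols that pass this floor. No member was higher in bone marrow, since none reached 5 RPKM there, and 9.51% of those symbols were. With the floor lowered to 1 RPKM, 3 members were higher in heart and 2 in bone marrow, beside 7.78% in heart and 9.26% in bone marrow of 11355 symbols. The members were chosen on this same contrast, so nothing is read from these counts. The median log2 ratio was 0.12 over all 9 members and 1.91 over the 5 at or above 1 RPKM. Over all 11355 symbols at or above 1 RPKM in either library it was -0.11. Crabp1 and Crabp2, at 4.15 and 4.12 RPKM in their higher library, lay just under the floor of 5, and Aldh1a1, at 5.52, just over it.

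Rarb, which encodes the retinoic acid receptor beta, had the largest difference of the 9. It stood at 7.47 RPKM in heart and 0.0244 RPKM in bone marrow, from 1471 reads in heart and 4 in bone marrow. The level was 306-fold higher in heart (counting interval 119 to 1125). Its log2 ratio of 3.05 was the 116th highest toward heart among the 11355 symbols at or above 1 RPKM. The deposited gene model lies on chromosome 14, from 16430842 to 16575472 on the minus strand (GRCm38, as for all coordinates here), and its length of 3034 bp equals that of the longest GENCODE transcript inside those bounds.

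Rarb is a textbook target of retinoic acid as well as its receptor, and Cyp26a1, which encodes an enzyme that breaks retinoic acid down, is another. These 2 promoters are shown because both genes are known for retinoic acid response elements, and because the 2 genes went opposite ways. Cyp26a1 is not among the 9 members. It stood at 0.0696 RPKM in heart and 11.3 RPKM in bone marrow, from 8 reads in heart and 1081 in bone marrow. The level was 162-fold higher in bone marrow (counting interval 82.1 to 377). The windows run from 250 bases before to 50 bases after the RefSeq gene start on GRCm38.p6, read 5′ to 3′ on the strand of the gene. Capitals mark 2 hexamers in the same direction, 5 bases apart, where a hexamer starts with A or G and goes on with GGTCA or GTTCA, the letters that retinoic acid receptors are known to bind.
Rarb, chr14:16575427-16575726, minus strand: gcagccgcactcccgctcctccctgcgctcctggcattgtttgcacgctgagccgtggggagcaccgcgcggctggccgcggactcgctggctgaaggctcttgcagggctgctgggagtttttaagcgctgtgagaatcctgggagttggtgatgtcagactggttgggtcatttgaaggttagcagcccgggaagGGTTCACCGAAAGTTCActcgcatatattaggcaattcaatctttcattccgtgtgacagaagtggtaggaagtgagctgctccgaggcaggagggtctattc
Cyp26a1, chr19:37697558-37697857, plus strand: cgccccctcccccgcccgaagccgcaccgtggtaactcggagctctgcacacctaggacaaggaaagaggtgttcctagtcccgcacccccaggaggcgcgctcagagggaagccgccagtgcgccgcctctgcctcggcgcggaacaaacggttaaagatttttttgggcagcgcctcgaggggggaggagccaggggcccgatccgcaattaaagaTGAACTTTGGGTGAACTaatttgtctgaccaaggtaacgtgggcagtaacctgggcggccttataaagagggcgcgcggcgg

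The Rarb match ran from 53 to 37 bases upstream of the gene start. The Cyp26a1 match ran from 32 to 16 bases upstream, on the opposite strand of the gene. Read in the direction of the hexamers, the elements compare as follows.
Rarb element: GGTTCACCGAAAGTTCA
Cyp26a1 element: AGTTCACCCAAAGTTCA
They share 15 of 17 bases and differ by G1A and G9C, with the base of Rarb first and positions counted from 1 at the 5′ end. Of 32851 such windows in the RefSeq table, 0.0974% hold a pair of these hexamers 5 bases apart on either strand. Windows were found for 7 of the 9 members, 12 windows in all, and the Rarb window was the only one with such a pair. Crabp2 and Aldh1a3, the members at or above 1 RPKM in bone marrow alone, had no window and were not searched. A spacing of 1 or 2 bases, searched in the same way, occurred in 0.222% and 0.268% of all windows and in 0 of the 12. A match is a run of letters in this window, and no binding was measured. The deposited Rarb model starts 4 bases inside the RefSeq start of the printed window, and the Cyp26a1 model starts at its RefSeq start.

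The retinaldehyde dehydrogenase genes, whose products make retinoic acid, had a similar sum in the libraries but a different leading gene. Aldh1a1, Aldh1a2 and Aldh1a3 together came to 5.75 RPKM in heart and 4.21 RPKM in bone marrow, a ratio of heart to bone marrow of 1.36. Aldh1a1 made up 96.1% of the summed level in heart and 17.1% in bone marrow. Aldh1a3 made up 1.22% in heart and 81.3% in bone marrow, and Aldh1a2 made up 2.73% in heart and 1.55% in bone marrow.

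Aldh1a1, on chromosome 19 from 20601961 to 20643462 on the plus strand, stood at 5.52 RPKM in heart and 0.722 RPKM in bone marrow, from 735 reads in heart and 80 in bone marrow. The heart level was the higher by 7.65-fold (counting interval 6.07 to 9.76), with a log2 ratio of 1.92. The deposited model starts 7 bases from the second of 2 RefSeq starts and leaves out the upstream one. Its close copy Aldh1a7 lies 49.5 kb away, with no other gene row between. Aldh1a7 went the other way, at 0.0746 RPKM in heart and 0.529 RPKM in bone marrow, from 10 reads in heart and 59 in bone marrow. Both values are uncertain, because reads may be shared between the copies and the way they were assigned is not known from the sources used here.

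Aldh1a3, on chromosome 7 from 66390890 to 66427517 on the minus strand, stood at 0.0701 RPKM in heart and 3.43 RPKM in bone marrow, from 21 reads in heart and 854 in bone marrow. The bone marrow level was the higher by 48.9-fold (counting interval 31.8 to 79.3). Its log2 ratio of -2.05 was the 245th lowest of the 11355 symbols. Aldh1a2, the main embryonic enzyme of the family, was low in both libraries, at 0.157 RPKM in heart and 0.0654 RPKM in bone marrow, from 23 reads in heart and 8 in bone marrow. The heart level was the higher by 2.39-fold (counting interval 1.03 to 6.19).

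The 2 Crabp genes, whose products carry retinoic acid in the cell, showed the same exchange. Fabp5, whose product can also carry it, is not part of this pair and stood at 2.48 RPKM in heart and 47.6 RPKM in bone marrow. Crabp1 and Crabp2 encode closely related binding proteins. Crabp2 is known to hand retinoic acid to its nuclear receptors, and Crabp1 is mostly linked to its storage and breakdown. Their sum was 5.01 RPKM in heart and 4.49 RPKM in bone marrow. Crabp1 was 82.8% of it in heart and 8.23% in bone marrow, and Crabp2 was 17.2% in heart and 91.8% in bone marrow.

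Crabp1, on chromosome 9 from 54764748 to 54773110 on the plus strand, stood at 4.15 RPKM in heart and 0.369 RPKM in bone marrow, from 216 reads in heart and 16 in bone marrow. The heart level was the higher by 11.2-fold (counting interval 6.76 to 20.0). Crabp2, on chromosome 3 from 87948666 to 87953376 on the plus strand, stood at 0.863 RPKM in heart and 4.12 RPKM in bone marrow, from 74 reads in heart and 294 in bone marrow. The bone marrow level was the higher by 4.77-fold (counting interval 3.69 to 6.25). Crabp2 lies 17.7 kb from Nes, the gene that names these cells, with 1 row between them that was below 1 RPKM in both libraries. The neighbours went opposite ways, since Nes stood at 8.74 RPKM in heart and 1.20 RPKM in bone marrow.

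**Figure D2:**
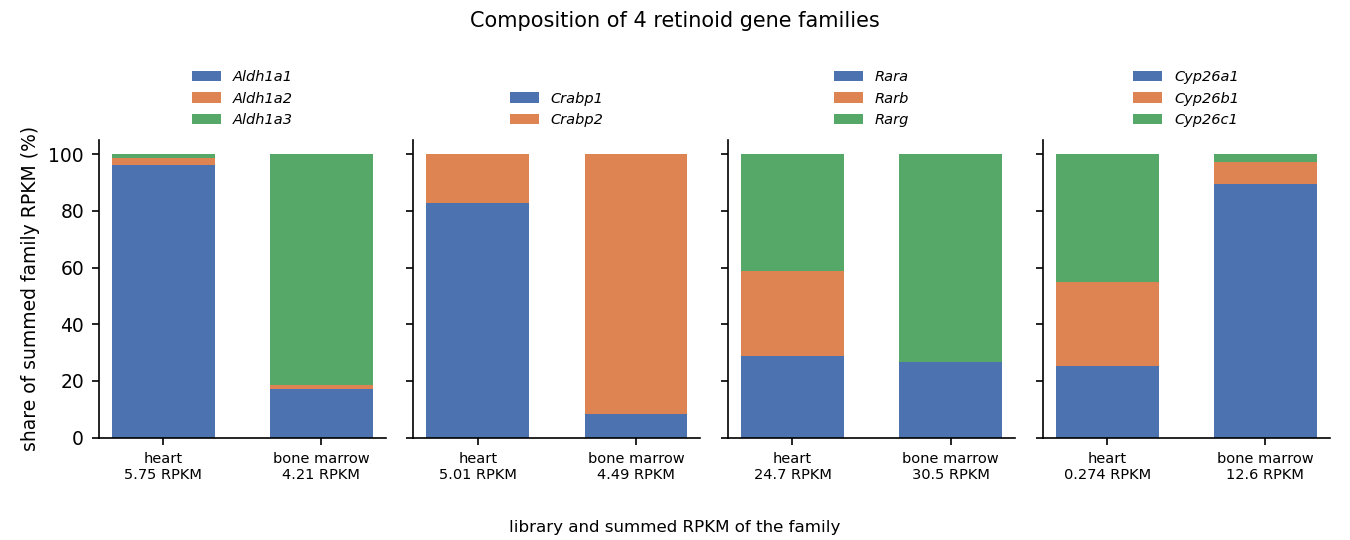
Share of each gene in the summed RPKM of its family, in percent, for the Aldh1a, Crabp, RAR and Cyp26 genes, with heart left of bone marrow and the summed RPKM under each bar. The Aldh1a and Crabp sums differ by less than 1.5-fold between libraries while the leading gene changes, and the Cyp26 sum is 0.274 RPKM in heart and 12.6 RPKM in bone marrow.

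The genes for the breakdown of retinoic acid were low in heart. The 3 Cyp26 genes summed to 0.274 RPKM in heart and 12.6 RPKM in bone marrow, a sum 46.1-fold higher in bone marrow. Cyp26a1 made up 25.4% of the sum in heart and 89.4% in bone marrow. Cyp26b1, the member of this family, lies on chromosome 6 from 84571414 to 84593908 on the minus strand. It had 28 reads in heart and 287 in bone marrow, and its level was 12.3-fold higher in bone marrow (counting interval 8.34 to 18.9). Its log2 ratio was only -0.88, because both levels were below the 1 RPKM added. Cyp26c1, which lies 4.41 kb from Cyp26a1 with no row between, stood at 0.124 RPKM in heart and 0.339 RPKM in bone marrow, from 14 reads in heart and 32 in bone marrow.

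The genes for delivery of retinol from outside the cell were hardly detected. Rbp4, on chromosome 19 from 38116620 to 38125321 on the minus strand, had 9 reads and 0.107 RPKM in heart and 0 reads in bone marrow. Against a floor of 3 reads set for bone marrow, it was 2.50-fold higher in heart, while the lower limit of the counting interval was smaller, at 1.64. Those 3 reads correspond to 0.0428 RPKM in bone marrow. The reads of Rbp4 rest on a model length of 1297 bp solved from the values, against 1161 bp for the longest GENCODE transcript inside the model. Stra6, on chromosome 9 from 58063788 to 58153996 on the plus strand, had 0 reads in heart and 12 reads and 0.0381 RPKM in bone marrow. Against the same floor set for heart, it was 4.81-fold lower in heart, while the lower limit of the counting interval of bone marrow over heart was smaller, at 3.34. The deposited Stra6 model begins 65300 bases upstream of the nearest RefSeq start and overlaps Ccdc33 on the other strand. Ccdc33 itself stood at 0.00577 RPKM in heart and 0.00693 RPKM in bone marrow. Whether the counting used strand is unknown from the sources used here, and the 12 reads cannot be assigned to Stra6 with certainty.

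The order of the members differed between the libraries. In heart it ran Rarb, Aldh1a1, Crabp1, Crabp2, Aldh1a2, Rbp4, Cyp26b1, Aldh1a3 and Stra6, with separate counting intervals for the first 5 and overlapping ones between neighbours from Aldh1a2 to Aldh1a3. In bone marrow it ran Crabp2, Aldh1a3, Cyp26b1, Aldh1a1, Crabp1, Aldh1a2, Stra6, Rarb and Rbp4. There the intervals were separate only between Aldh1a3 and Cyp26b1 and between Crabp1 and Aldh1a2. Rarb was thus the highest member in heart and the eighth of the 9 in bone marrow, with 4 reads.

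Beyond the 9 members, 53 other genes of the pathway were taken from 7 lists by role. Of these, 31 were at or above 1 RPKM in either library and 25 were at or above 5 RPKM. At the floor of 5 RPKM, 3 were at least 2-fold higher in heart (Nr2f1 and Nr2f2 among them), 5 were higher in bone marrow (Cyp26a1, Adh7, Dhrs3, Rarg and Fabp5) and 17 were neither. The background shares for these counts are 7.56% toward heart and 9.51% toward bone marrow. The median log2 ratio over the 31 was -0.06, beside -0.11 over all symbols at or above 1 RPKM.

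**Figure D3:**
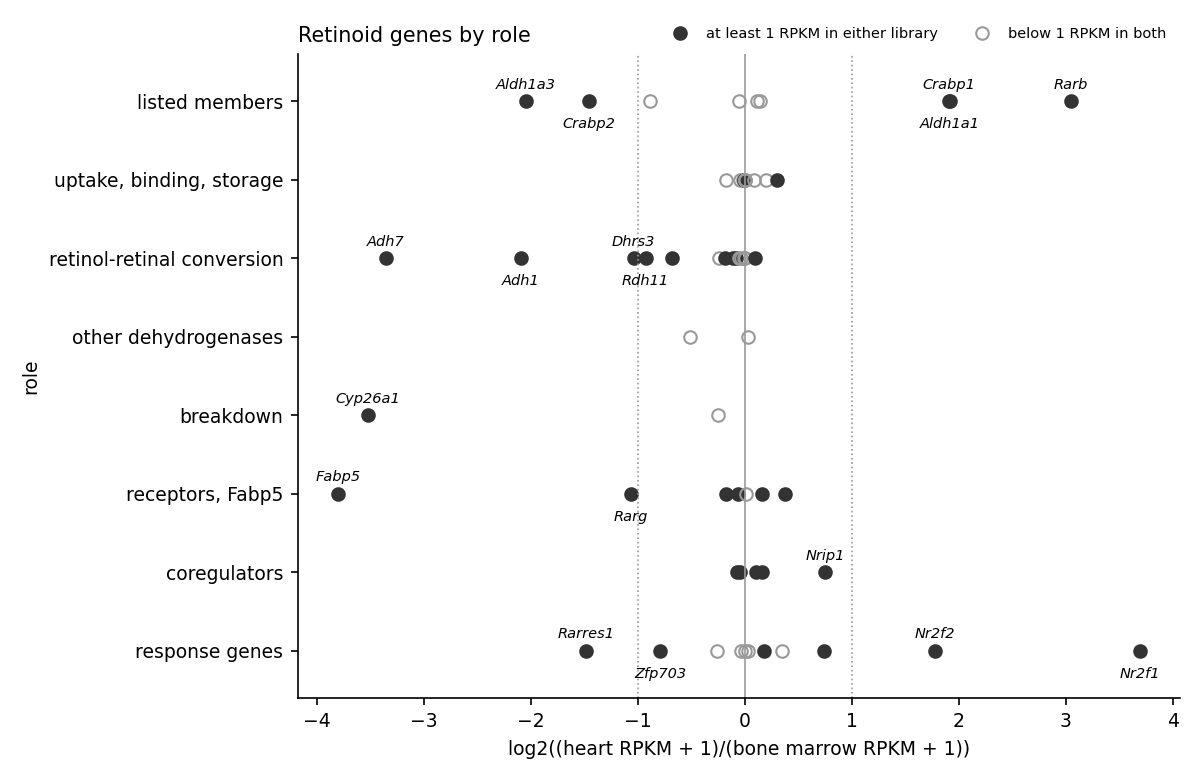
Log2 ratio of heart over bone marrow (1 RPKM added to both) for the 9 members in the top row and the other retinoid genes reported here in the rows below, grouped by role; filled points are at or above 1 RPKM in either library, open points below it in both, and dotted lines mark 2-fold. The coregulators drawn lie within 2-fold, and the widest differences drawn are those of Nr2f1, Fabp5, Cyp26a1 and Adh7.

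Among genes of retinol uptake, binding and storage, 8 of 11 were below 1 RPKM in both libraries. Dgat1, which encodes an acyltransferase that can also esterify retinol, and Scarb1, which encodes a lipid uptake receptor, had log2 ratios of 0.30 and -0.01. The median over the 3 genes at or above 1 RPKM was 0.30. Lrat, which encodes the main retinol-esterifying enzyme, had 0 reads in both libraries.

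Of 14 genes for conversion between retinol and retinaldehyde, 9 were at or above 1 RPKM in either library, with a median log2 ratio of -0.68. With a floor of 1 RPKM, 0 of these were higher in heart and 3 in bone marrow, and 6 were neither, where 7.78% of all symbols past that floor were higher in heart and 9.26% in bone marrow. Adh7, which encodes an alcohol dehydrogenase active on retinol, stood at 0.252 RPKM in heart and 11.8 RPKM in bone marrow, and was 46.7-fold higher in bone marrow (counting interval 36.3 to 61.2). Adh1, which encodes another alcohol dehydrogenase, lies 27.6 kb from Adh7 with no row between. It stood at 0.145 RPKM in heart and 3.87 RPKM in bone marrow, 26.7-fold higher in bone marrow. Adh5, in the same cluster 152 kb from Adh1, stood at 20.5 RPKM in heart and 22.2 RPKM in bone marrow.

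Dhrs3, which encodes an enzyme that turns retinaldehyde back to retinol, had a log2 ratio of -1.04, and Rdh11, which encodes a retinol dehydrogenase, had -0.93. Rdh10, which encodes the main embryonic retinol dehydrogenase, stood at 2.77 RPKM in heart and 3.29 RPKM in bone marrow. Adh5, Rdh10, Rxra and Rxrb were not taken by the naming rule but picked with their values in view.

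The other receptors of the pathway differed less than Rarb. Rara stood at 7.07 RPKM in heart and 8.13 RPKM in bone marrow. Rarg stood at 10.1 RPKM in heart and 22.3 RPKM in bone marrow, with a log2 ratio of -1.07. The 3 RAR genes summed to 24.7 RPKM in heart and 30.5 RPKM in bone marrow. Rarb made up 30.3% of that sum in heart and 0.0802% in bone marrow, and Rarg made up 41.1% in heart and 73.2% in bone marrow. The partner receptors Rxra and Rxrb had log2 ratios of -0.06 and 0.16, and Ppard, which encodes a fatty acid receptor, had 0.38.

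Fabp5, which encodes a fatty acid binding protein that can also carry retinoic acid, stood at 2.48 RPKM in heart and 47.6 RPKM in bone marrow. The bone marrow level was the higher by 19.1-fold (counting interval 17.6 to 20.9). Fabp5 has close copies in the genome, which makes its values uncertain. The median log2 ratio over the 6 receptor and carrier genes at or above 1 RPKM was -0.12. Of 6 coregulator genes at or above 1 RPKM, none was 2-fold apart and the median log2 ratio was 0.09. Nrip1, a coregulator gene known to respond to retinoic acid, had a log2 ratio of 0.75, and Ncor1 and Ncoa3 had 0.16 and 0.10. Rarg and Dhrs3, close to the 2-fold line, were the 2 genes that no longer counted as higher in bone marrow once the libraries were scaled to the same median ratio, which left 3 genes in place of 5.

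Of 11 genes that respond to retinoic acid in other settings, 6 were at or above 1 RPKM in either library, with a median log2 ratio of 0.46. With a floor of 1 RPKM, 2 of them were higher in heart, 1 was higher in bone marrow and 3 were neither, beside the same shares of 7.78% toward heart and 9.26% toward bone marrow over all symbols. Nr2f1 and Nr2f2, which encode the orphan nuclear receptors COUP-TFI and COUP-TFII, were higher in heart. Nr2f1 stood at 40.3 RPKM in heart and 2.19 RPKM in bone marrow, an 18.4-fold difference. Nr2f2 stood at 29.3 RPKM in heart and 7.83 RPKM in bone marrow, a 3.75-fold difference. Rarres1, first named for its response to a synthetic retinoid, stood at 0.233 RPKM in heart and 2.45 RPKM in bone marrow, and was 10.5-fold higher in bone marrow. Zfp703, which encodes a zinc finger protein, had a log2 ratio of -0.79.

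**Figure D4:**
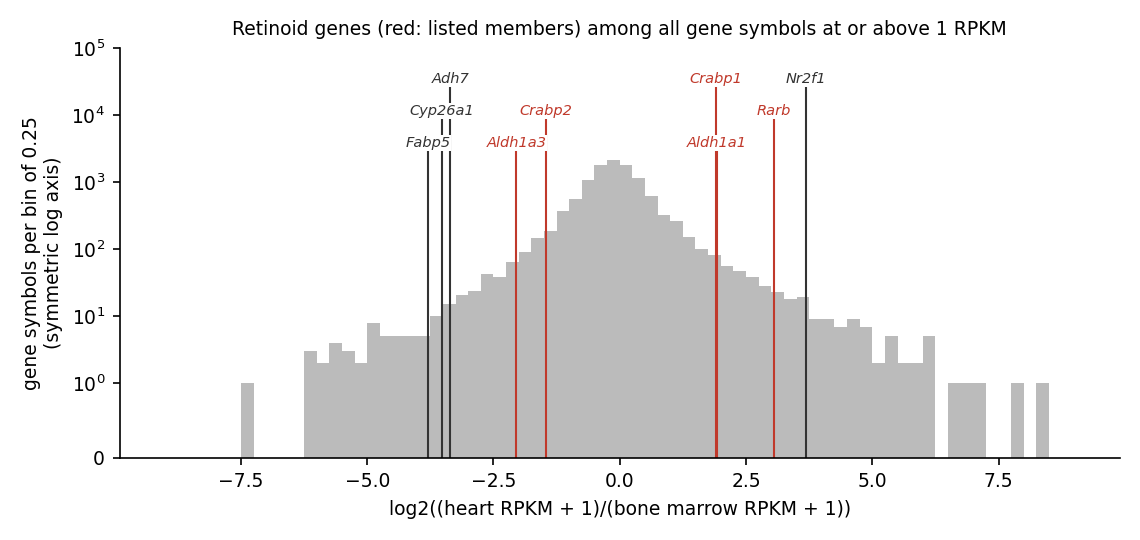
Number of gene symbols per 0.25-wide bin of the log2 ratio of heart over bone marrow, on a symmetric log axis, for the 11355 symbols at or above 1 RPKM in either library. Lines mark the 5 members that pass this floor (red) and 4 other retinoid genes (black). These 4 have the widest log2 ratios of the other retinoid genes reported here, and the median over all 31 that pass the floor was -0.06. Rarb at 3.05 and Aldh1a3 at -2.05 lie in the tails, and Fabp5 at -3.80 and Nr2f1 at 3.69 lie farther out.

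The label of the cells was checked against marker genes. All 10 mesenchymal stromal markers were at or above 1 RPKM in either library, 9 of them in heart, 8 in bone marrow and 7 in both. The 10 summed to 4864 RPKM in heart and 3978 RPKM in bone marrow, most of it from collagen genes. At the floor of 5 RPKM, 5 of the 10 were called toward heart and 0 toward bone marrow, 4 were within 2-fold and Nt5e was under the floor, beside 7.56% toward heart and 9.51% toward bone marrow over all symbols. Col1a1 stood at 1751 RPKM in heart and 1777 RPKM in bone marrow, and Col1a2 at 978 RPKM in heart and 960.5 RPKM in bone marrow. Nes and Col3a1 were among the 5 higher in heart, with Col3a1 at 1388 RPKM in heart and 129 RPKM in bone marrow. The stromal surface antigen genes Eng and Thy1 were also among them. Eng stood at 33.9 RPKM in heart and 0.576 RPKM in bone marrow, and Thy1 at 16.7 RPKM in heart and 0.0603 RPKM in bone marrow. Nt5e stood at 0.225 RPKM in heart and 1.59 RPKM in bone marrow. Of 11 mesothelial and epicardial markers, genes of a tissue known for Aldh1a2, only Tbx18 reached 1 RPKM, at 12.8 RPKM in heart and 10.6 RPKM in bone marrow. Krt19 stood at 0.0166 RPKM in heart and 0.908 RPKM in bone marrow, Upk1b at 0.349 RPKM in heart with no read in bone marrow, and Lrrn4 was at 0 in both libraries. Of 7 markers of stellate cells, which store vitamin A in liver, only Hand2 reached 1 RPKM, at 2.85 RPKM in heart and 0.00788 RPKM in bone marrow. Des stood at 0.0205 RPKM in heart and 0.345 RPKM in bone marrow, Lhx2 at 0 in heart and 0.110 RPKM in bone marrow, and Lrat at 0 in both. These 7 summed to 2.91 RPKM in heart, nearly all of it Hand2, and 0.545 RPKM in bone marrow. The 11 mesothelial and epicardial genes summed to 13.4 RPKM in heart and 11.9 RPKM in bone marrow, most of it Tbx18 in both.

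No hepatocyte marker of 6 reached 1 RPKM, and Apoa1, Ttr, Serpina1a and Fgb were listed at 0 in both libraries, with 0.351 RPKM in heart and 0.414 RPKM in bone marrow in sum, nearly all of it Apoa2. Of 6 adipocyte markers, Fabp4 stood at 6.59 RPKM in heart and 6.68 RPKM in bone marrow and Pparg at 0.658 RPKM in heart and 4.85 RPKM in bone marrow, while Adipoq stood at 0.0446 RPKM in heart and 0.0268 RPKM in bone marrow. Endothelial, haematopoietic and cardiomyocyte markers, 6 each, summed to 0.272, 5.01 and 0.785 RPKM in heart and to 1.36, 1.32 and 0.898 RPKM in bone marrow. Vwf stood at 0.00768 RPKM in heart and 1.13 RPKM in bone marrow, and Tie1 was at 0 in both. Cd53 stood at 4.80 RPKM in heart and 1.03 RPKM in bone marrow, Ptprc at 0 in heart and 0.00469 RPKM in bone marrow, and Laptm5 at 0 in both. The part of these cell types in the differences of the retinoid genes was not tested.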

How the data were processed

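Total RNA of both cultures was made into 1 Illumina library per tissue, per the labels' protocols. Each of 49585 rows holds a name, a region and an RPKM value, which the authors deposited in that unit, per the file headers. How reads were aligned, counted and assigned to strands is not given in the sources used here. The submitters' processing notes list mm8 as the build, whereas 45149 rows (91.1%) match a GENCODE M21 model on GRCm38, and coordinates are read on GRCm38.

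Reads and library totals were derived from the RPKM values and exon lengths. Reads were whole within 0.02 in both libraries for 86.2% of the 14255 genes of known length with any signal in each. For other named genes the model length was the one giving whole reads nearest to the longest GENCODE transcript inside the model. For Rarb, Aldh1a1 and Cyp26a1 it equalled that transcript. Where it did not (Rbp4, Rarg, Nr2f1, Nr2f2 and others), the reads and the width of the interval rest on that choice, since multiples of a length also give whole reads. Folds are ratios of reads per library total, with exact conditional (Clopper-Pearson) 95% intervals. These intervals cover counting error only and treat each read as independent. The reads carry no molecular identifiers, so that independence was not checked. Rows sharing a symbol were represented by the one with the highest mean, leaving 49492 symbols.

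The members and lists were chosen with earlier results of these data known. Named genes are the members, up to 4 genes per pathway list at or above 1 RPKM with the widest log2 ratio, Aldh1a7, Cyp26a1 and Cyp26c1, and up to 3 genes per marker list by level. Some genes that this rule takes are counted in their lists but not reported here. Nes, Eng, Thy1, Nt5e, Ccdc33 and genes named for being at or near 0 lie outside this rule and were picked with values in view. Alternatives were pseudocounts, floors, a 4-fold threshold, scalings and summed rows. Promoters are from RefSeq (GRCm38.p6). The software was numpy 2.4.6, scipy 1.17.1, pandas 2.3.3 and, for figures, matplotlib 3.10.9 under Python 3.11.15. The recovery of library totals and the 2-fold call were tested on simulated data, and the other steps were not.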

Additional observations from a re-analysis of the deposited data

How the results depend on the processing

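None of the 9 members changed the sign of its log2 ratio under the 11 alternatives. The count of 2 members higher in heart became 1 with a pseudocount of 5 RPKM, 1 with a 4-fold threshold and 0 with a floor of 20 RPKM. It became 3 with a floor of 1 RPKM or none. The count of 0 higher in bone marrow became 2 with a floor of 1 RPKM or none. The 5 other pathway genes higher in bone marrow became 3 with a pseudocount of 5 RPKM, with a 4-fold threshold and with scaling by the upper quartile, by the median ratio or by the RPKM sum without the most abundant genes, and 2 with a floor of 20 RPKM. They became 4 with scaling by the trimmed mean and 7 with a floor of 1 RPKM or none. The 3 other pathway genes higher in heart became 2 with a 4-fold threshold. Scaling by the median ratio adds 0.15 to log2 ratios of abundant genes. The median log2 ratio of the members, 1.91, became 2.77 with a pseudocount of 0.1 RPKM, 0.77 with 5 RPKM and 0.12 with no floor, and had no value with a floor of 20 RPKM, since no member reached it. The pseudocount and the floor set these changes by their construction. No paired analysis was possible because each tissue has 1 library. Depth limits Rbp4, Stra6, Aldh1a2, the heart level of Aldh1a3 and the bone marrow levels of Crabp1 and Rarb, which rest on at most 23 reads a library.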
